A study of Mus musculus with 24 samples.

Results

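The comparison described here is the difference between bone and white adipose tissue in how transcript levels of heterozygous mice differed from those of wild-type mice. It was computed as the heterozygote-minus-wild-type difference in bone minus the same difference in white fat, on 16 of the 24 arrays of the study. The 4 groups are bone of heterozygous mice, bone of wild-type mice, white fat of heterozygous mice and white fat of wild-type mice, each with 4 arrays. All animals were male C3HeB/FeJ mice aged 117 days. The heterozygotes carried an allele of Ednra induced by the mutagen ENU, which the series title spells Ednray129F and the sample labels spell Endra; wild-type mice did not. The mutation is in the germ line, so every tissue of a heterozygote carried it. A probe entered where its detection p-value was under 0.05 on at least 4 arrays of each tissue. This left 8508 of the 16593 genes named on the array, each represented by its brightest kept probe.

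Ednra encodes the endothelin A receptor, a G protein-coupled receptor on smooth muscle and other cells that responds to the peptide endothelin-1. Endothelin-converting enzymes release the ligand from its precursor, and the receptor signals through G proteins of the Gq and G12/13 families to phospholipase C and protein kinase C, among other effectors. In bone, endothelin-1 is known to act on osteoblasts, and in fat on adipocytes and blood vessels. Both tissues are mixtures: bone samples can hold marrow, cartilage and attached muscle, and white fat holds adipocytes, vessels, fibroblasts and macrophages.

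Levels are log2 intensities after background correction and quantile normalization of the 16 arrays together. Bone arrays had the osteocalcin gene Bglap2 at 14 to 14.4, and fat arrays had the leptin gene Lep at 13.5 to 14.7 and the adiponectin gene Adipoq at 13.9 to 14.5, so the labelled tissues carried their defining transcripts. Bone arrays also held skeletal muscle transcripts at a summed log2 level of 17.87 to 18.09 in heterozygotes and 17.97 to 18.11 in wild types. The mean raw intensity per array was 473.2 to 614.6 in heterozygous and 568.5 to 625.4 in wild-type bone, and 553 to 665.5 in heterozygous and 702.1 to 820.1 in wild-type fat, so the genotypes did not overlap in fat. The labels tie each bone array to a fat array of the same mouse, and they give 7 mouse numbers for 8 animals, because 1 number stands under both heterozygote 4 and wild type 3. No probe was named for Ednra in the annotation used, so the mutated gene was not measured here.

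Fat of heterozygote 2 stood apart from the other fat arrays. It held Bglap2 at 8.49, where the other 7 fat arrays had 4.59 to 4.72, the cartilage collagen gene Col2a1 at 7.02 against 4.94 to 5.42, the granule genes Camp at 10.3 against 4.59 to 5.95 and Ngp at 9.69 against 4.63 to 5.19, and the muscle creatine kinase gene Ckm at 8.04 against 4.49 to 4.85. All of these transcripts were far higher on bone arrays. The main results are therefore given with and without this array.

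In heterozygotes, 10 of 19 macrophage markers, 6 of 15 inflammation genes and 9 of 50 lysosome genes were called higher in bone and lower in white fat, and none of these lists had a gene called the reverse. Lower in bone and higher in fat were 10 of 48 genes of RNA decay, 11 of 62 of splicing, 13 of 108 of chromatin and 6 of 23 of aminoacyl-tRNA synthesis. Called the reverse were 3 genes of RNA decay, 4 of splicing, 2 of chromatin and none of aminoacyl-tRNA synthesis. The median difference of the splicing list in fat was -0.01. The 2 genotype differences disagreed between the tissues for 959 of 8508 genes, or 11.3% (limma, adjusted p under 0.05). Of these, 462 genes (5.43% of all tested) were higher in heterozygous bone and lower in heterozygous fat, with median log2 differences of 0.31 in bone and -0.43 in fat. Another 472 genes (5.55%) were lower in bone and higher in fat, with medians of -0.26 and 0.34. The remaining 25 had the same sign in both tissues. With arrays scaled to a common median in place of quantile normalization, 312 genes were higher in bone and lower in fat and 161 the reverse. Opposite signs thus made up 97.4% of the called genes, beside 60.1% of all genes tested, and a gene of opposite signs has by construction a larger difference between tissues.

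**Figure D1:**
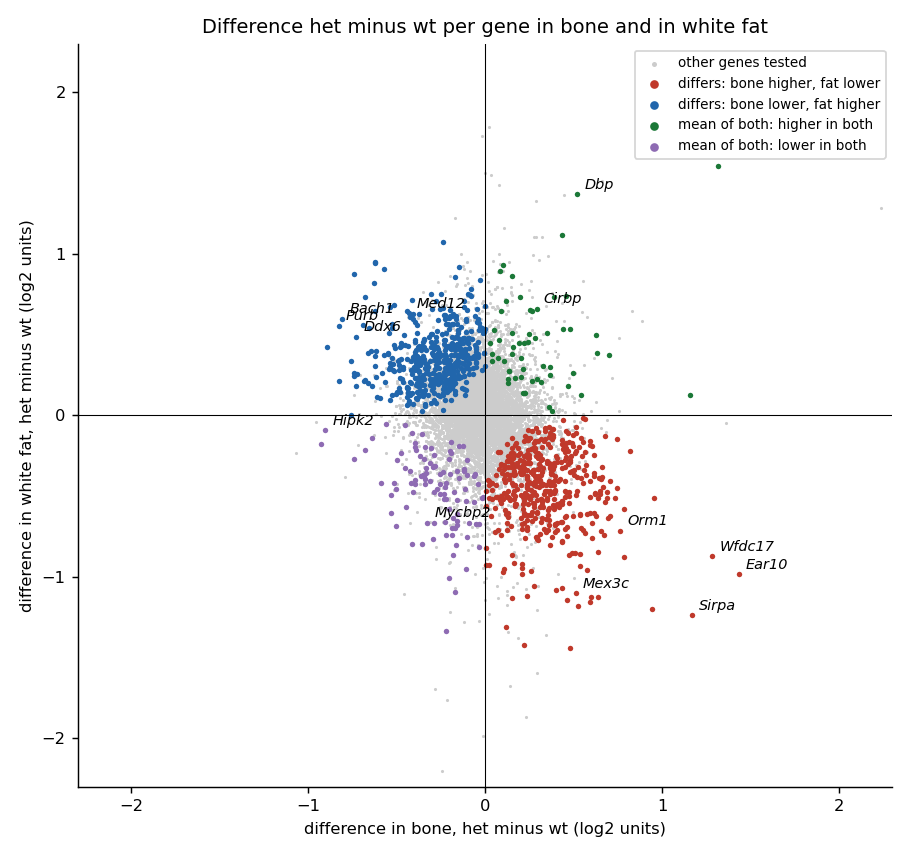
Difference in log2 level, heterozygous (het) minus wild type (wt), in bone (horizontal) and white fat (vertical) for each gene tested; 1 gene lies outside the axes. Red and blue points passed the test of the difference between tissues with opposite signs and fill the lower right and upper left of the plot, and green and purple points passed the test of the mean of both differences with the same sign.

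The 2 tissues did not contribute alike to these calls. For 209 of the 462 genes and 201 of the 472 genes, the difference in each tissue had an unadjusted p under 0.05. Among the 462, 178 reached that level in fat alone and 75 in bone alone, and among the 472, 179 did so in fat alone and 92 in bone alone. On their own, the bone difference passed an adjusted p of 0.05 for 120 genes (1.41%) and the fat difference for 1294 genes (15.2%). Subtracting each animal's fat level from its bone level gave values that did not overlap between heterozygotes and wild types for 326 of the 462 genes (70.6%) and 352 of the 472 (74.6%), beside 15.3% of all genes tested. The called genes were chosen by the difference between tissues on the same arrays, so their higher shares follow in part from that choice. Among all genes tested, 2.07% had arrays that did not overlap between the genotypes in bone nor in fat.

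The number of calls rested on single animals. Without wild type 2 no gene passed by limma (1801 had an unadjusted p under 0.05), without wild type 1 the count was 9, without heterozygote 2 it was 12, and without wild type 3 it was 1946. Without fat of heterozygote 2 alone it was 676, of which 338 were higher in bone and lower in fat and 316 the reverse. Without wild type 2, 461 of the 462 genes and 469 of the 470 still tested of the 472 had the same sign as before. These genes were chosen on the same arrays, so signs kept here and with the covariate below are not an independent check. With the animal as a fixed block, which leaves the estimates as they are in this balanced design, no gene passed adjustment by limma (2412 of all genes had an unadjusted p under 0.05). Since array brightness did not overlap between the genotypes in fat, genotype and brightness there cannot be told apart. With the log2 brightness of each array as a covariate per tissue, all 462 and all 472 had the same sign as before, with median differences between tissues of 0.51 in place of 0.73 and -0.45 in place of -0.61, and no gene passed by limma (954 had an unadjusted p under 0.05).

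**Figure D2:**
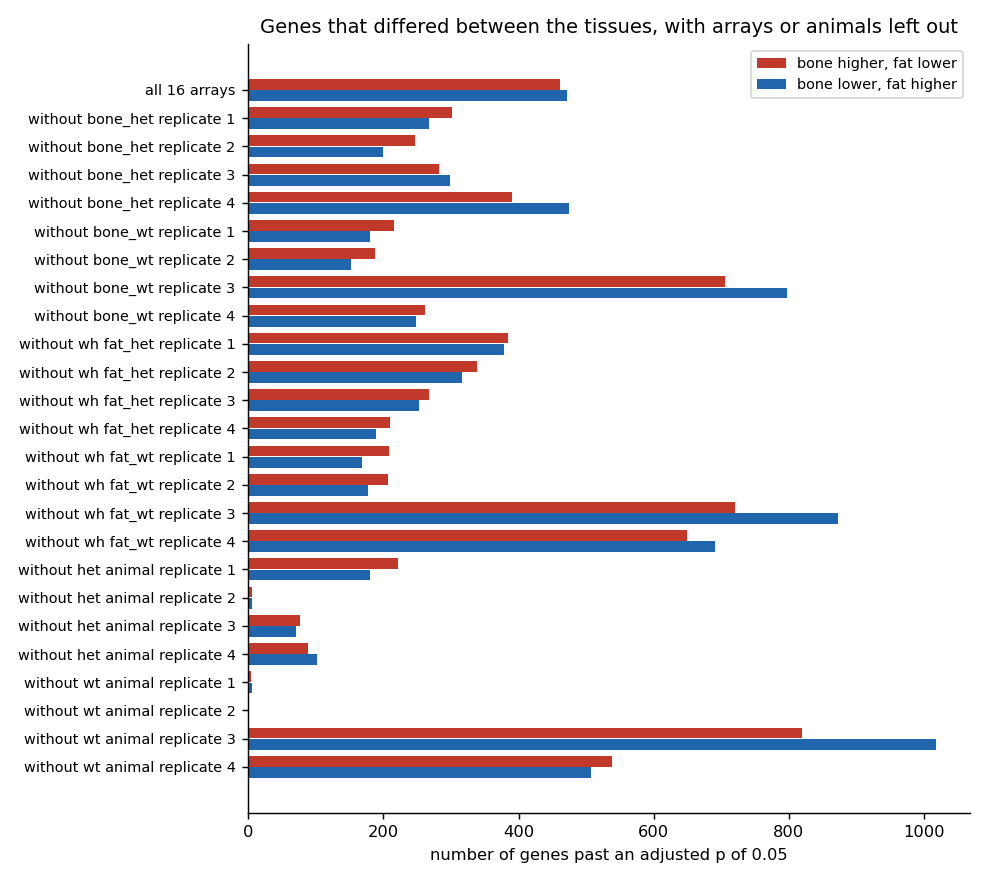
Number of genes (horizontal) that passed the test of the difference between tissues with opposite signs, for all 16 arrays and with 1 array or both arrays of 1 animal left out. The bars run from none without wild-type animal 2 to 819 and 1018 without wild-type animal 3.

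Among genes higher in heterozygous bone and lower in heterozygous fat, Tmem38b had the smallest p. It encodes a cation channel of the endoplasmic reticulum, and loss of the human gene causes a form of brittle bone disease. Its log2 levels were 10.98, 10.87, 10.83 and 10.91 in heterozygous bone, against 10.43, 10.20, 10.59 and 10.47 in wild-type bone. In fat they were 10.64, 10.46, 10.37 and 10.28 in heterozygotes, against 11.04, 11.07, 10.74 and 10.80 in wild types. The genotypes did not overlap in either tissue, every heterozygote being above every wild type in bone and below every wild type in fat. The fold was 1.39 in bone (log2 difference 0.47 ± 0.095, SE) and 1.39 in the other direction in fat (-0.48 ± 0.095), and the difference between tissues was 0.95 ± 0.14 (limma, adjusted p = 0.00864). Its second kept probe gave 0.77.

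Orm1 encodes orosomucoid, an acute-phase plasma protein that adipose tissue also makes. Its level was 9.86, 9.71, 9.37 and 9.30 in heterozygous bone, against 8.66, 8.34, 9.08 and 9.12 in wild-type bone. In fat, where the gene was near the top of the scale, it was 13.09, 13.15, 12.78 and 12.81 in heterozygotes, against 13.89, 13.89, 13.50 and 13.39 in wild types. Neither tissue showed an overlap, and wild types 3 and 4 lay nearest to the heterozygotes in both. Orm1 was 1.7-fold higher in heterozygous bone and 1.64-fold lower in heterozygous fat (difference between tissues 1.48 ± 0.248, limma adjusted p = 0.0122).

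Mex3c encodes an RNA-binding ubiquitin ligase, and Tiam1 an activator of the small GTPase Rac. Mex3c stood at 6.23, 6.40, 5.96 and 6.32 in heterozygous bone, against 5.34, 5.52, 6.05 and 5.96 in wild-type bone, and at 5.87, 5.59, 5.79 and 5.22 in heterozygous fat, against 6.85, 6.77, 6.63 and 6.62 in wild-type fat. Its genotypes overlapped in bone by wild type 3 and 4 but not in fat, and it was detected on 3 of the 4 heterozygous fat arrays. Tiam1 stood at 10.29, 10.23, 10.12 and 10.08 in heterozygous bone, against 9.86, 9.76, 10.06 and 10.09 in wild-type bone, and at 9.22, 9.15, 9.18 and 9.03 in heterozygous fat, against 9.68, 9.73, 9.61 and 9.53 in wild-type fat. Of the wild types, only the fourth reached the heterozygous range of Tiam1 in bone. The difference between tissues was 1.61 ± 0.245 for Mex3c (limma, adjusted p = 0.00873) and 0.73 ± 0.123 for Tiam1 (limma, adjusted p = 0.0122).

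In bone, the largest folds among the 12 genes of smallest p in this direction belonged to genes of myeloid cells. Ear10, an eosinophil-associated ribonuclease, was 2.69-fold higher in heterozygous bone and 1.98-fold lower in heterozygous fat, where it was detected on 2 of 4 arrays. Wfdc17, a small secreted protein made by macrophages, was 2.43-fold higher in bone and 1.83-fold lower in fat. Sirpa, an inhibitory receptor of myeloid cells that binds CD47, was 2.25-fold higher in bone and 2.35-fold lower in fat. The further genes of smallest p had smaller folds, from 1.18 to 1.56 in bone and from 1.31 to 1.64 in fat: the matrix protein gene Tgfbi, the pyrimidine-degrading enzyme gene Upb1, the angiopoietin-like gene Angptl1, the tetraspanin gene Cd9 and the endosomal deubiquitinase gene Usp8. Cd9 had an unadjusted p under 0.05 in fat alone. All 12 genes, which were chosen with that array included, kept their direction without fat of heterozygote 2.

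Among genes lower in heterozygous bone and higher in heterozygous fat, Bach1 had the smallest p of all genes tested. It encodes a transcriptional repressor of heme oxygenase and other genes, released from DNA by heme. Its log2 level was 8.52, 8.51, 8.37 and 8.55 in heterozygous bone, against 9.34, 9.56, 9.09 and 9.20 in wild-type bone, and 8.27, 8.00, 8.41 and 8.08 in heterozygous fat, against 7.29, 7.49, 7.89 and 7.70 in wild-type fat. No heterozygote overlapped a wild type in either tissue. Bach1 was 1.75-fold lower in bone (log2 difference -0.81 ± 0.129) and 1.51-fold higher in fat (0.60 ± 0.129), a difference between tissues of -1.41 ± 0.189 (limma, adjusted p = 0.00662). With array brightness as a covariate it was -0.99 (limma, adjusted p = 0.369), and without fat of heterozygote 2 it was -1.47 (limma, adjusted p = 0.00641).

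Ddx6 encodes an RNA helicase of processing bodies, where messenger RNA is stored or decapped. Its level was 9.23, 9.00, 9.11 and 9.09 in heterozygous bone, against 9.81, 9.98, 9.58 and 9.96 in wild-type bone, and 10.38, 10.29, 10.50 and 10.33 in heterozygous fat, against 9.54, 9.72, 10.21 and 10.08 in wild-type fat. The genotypes were apart in both tissues, and wild type 3 was the wild type nearest to the heterozygotes in both. The difference between tissues was -1.22 ± 0.181 (limma, adjusted p = 0.00864), but its other 2 kept probes gave -0.10 and -0.47 with unadjusted p-values of 0.68 and 0.07.

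Med12 encodes a subunit of the Mediator kinase module, which links transcription factors to RNA polymerase II, and Purb a single-stranded nucleic acid-binding protein. Med12 was at 9.36, 9.24, 9.61 and 9.43 in heterozygous bone, against 10.01, 9.95, 9.67 and 9.74 in wild-type bone, and at 8.67, 8.87, 8.75 and 8.92 in heterozygous fat, against 7.84, 8.12, 8.42 and 8.30 in wild-type fat. Purb was at 6.34, 6.40, 6.37 and 6.21 in heterozygous bone, against 7.16, 7.43, 6.97 and 7.07 in wild-type bone, and at 8.35, 8.04, 7.99 and 8.05 in heterozygous fat, against 7.07, 7.56, 7.99 and 7.59 in wild-type fat. Both genes were apart by genotype in both tissues, although Purb in fat of wild type 3 all but met the lowest heterozygote. The difference between tissues was -1.06 ± 0.173 for Med12 and -1.38 ± 0.226 for Purb (limma, adjusted p = 0.0122 for each).

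Several of the next genes act in transcription or splicing. They include Spen, a transcriptional repressor, with log2 differences of -0.51 in bone and 0.42 in fat, and Rcor1, the corepressor CoREST, with -0.69 and 0.56. Ccnl1, a cyclin tied to splicing factors, had -0.63 and 0.82. Srrm2, a scaffold of nuclear speckles, had -0.75 in bone and 0.25 in fat (limma, unadjusted p = 0.06 in fat). The innate immune ubiquitin ligase gene Trim56 had -0.52 and 0.69, the GTPase-activating protein gene Arhgap32 -0.53 and 0.56, and the syntenin gene Sdcbp2 -0.28 and 0.71. Tnfrsf25, the death receptor 3 of lymphocytes, had -0.83 in bone and 0.21 in fat, where its unadjusted p by limma was 0.11. It was detected on 3 of the 4 heterozygous bone arrays. All 12 passed an adjusted p of 0.05 by limma, with values of at most 0.0132.

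**Figure D3:**
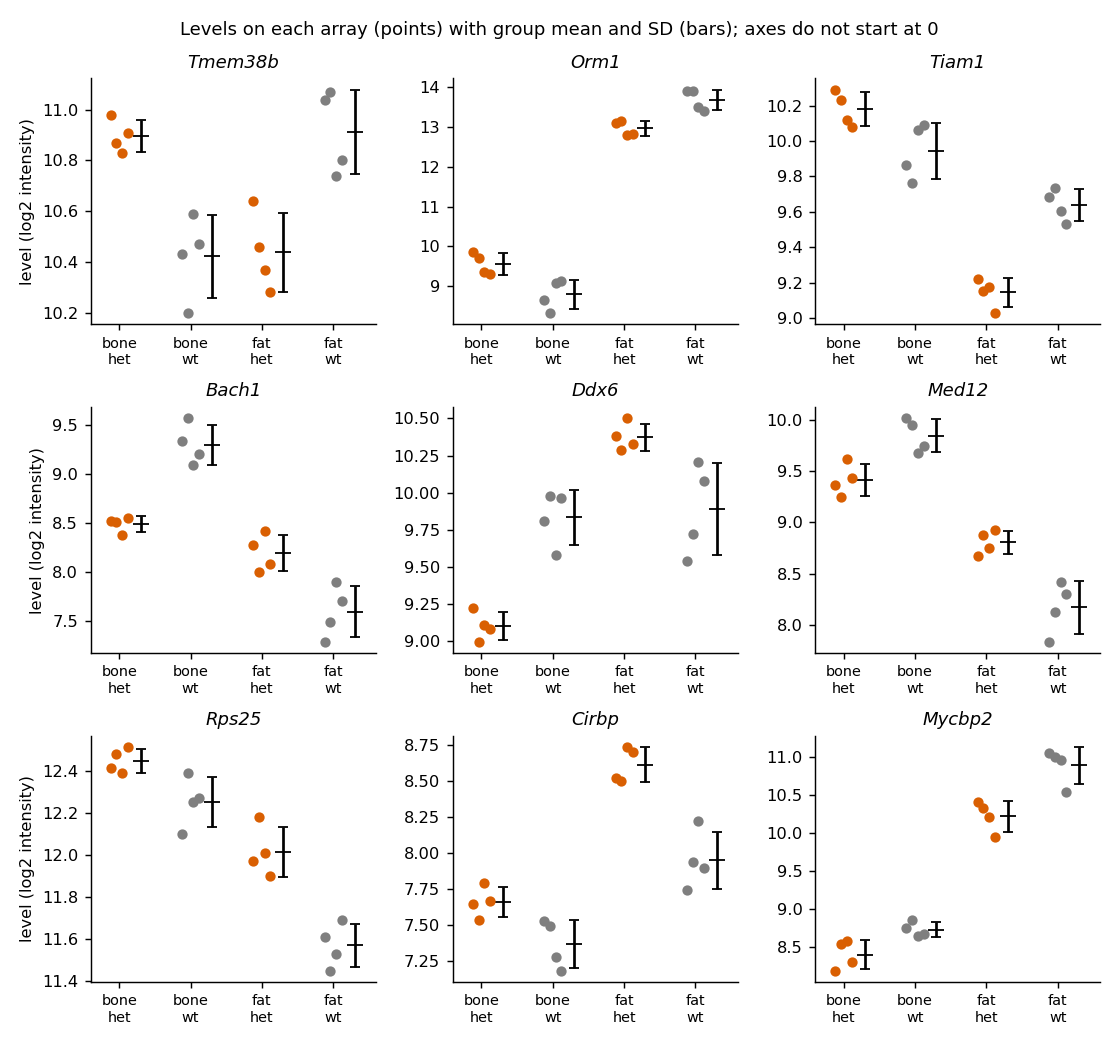
Log2 level on each array (points, orange for het and grey for wt) with the group mean and SD beside them, for 3 genes that were higher in bone and lower in fat (top row), 3 that were lower in bone and higher in fat (middle row) and 3 that moved the same way in both tissues (bottom row). In the top and middle rows the step from wt to het points up in one tissue and down in the other, and vertical axes differ between panels and do not start at 0.

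**Figure D4:**
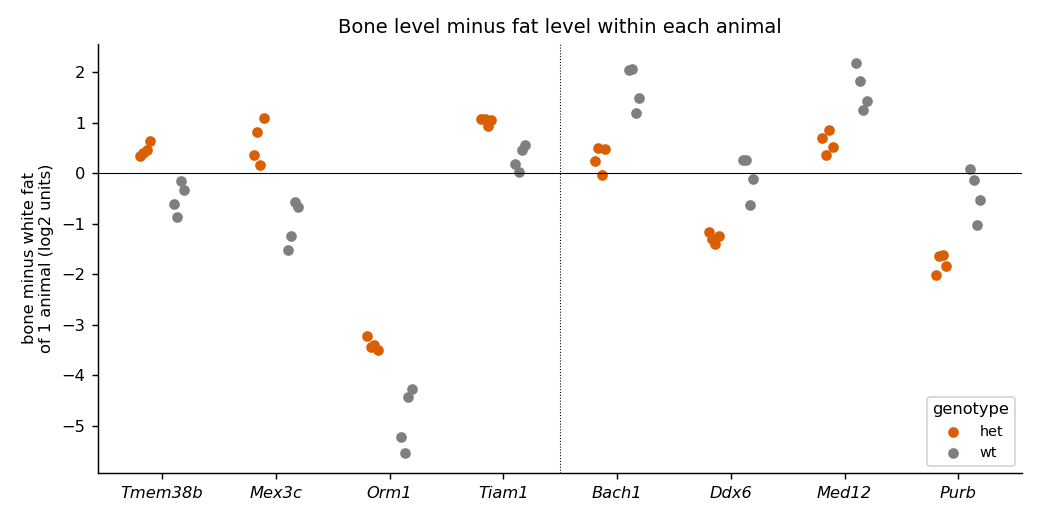
Bone level minus fat level within each animal (vertical, log2 units) for the 8 genes of smallest p, with 4 heterozygous (orange) and 4 wild-type (grey) animals each. Heterozygotes lie above all wild types for the 4 genes on the left and below all wild types for the 4 on the right.

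Genes with more than 1 probe allowed a further look at these calls on the same arrays. Of the 462 genes, 142 had 193 other kept probes, of which 164 had the same sign of the difference between tissues and 107 of those an unadjusted p under 0.05. Of the 472, 134 had 186 other probes, 141 with the same sign and 77 of those with an unadjusted p under 0.05. Hnrnpk was a case of disagreement, its probes giving 0.94 and -0.66.

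The 8 heart arrays came from other animals of the same genotypes. Of the 462 genes, 378 were also detected in heart, and 66.4% of these were higher in heterozygotes, beside 37.5% of all 7616 genes detected in heart. Of the 472, 426 were detected and 32.2% were higher. Without heart of wild type 4 these shares were 73.7%, 45.3% and 30.7%. No gene passed in heart by limma, in either class or among all genes detected there, with or without heart of wild type 4. Of the genes called higher in both bone and fat by the mean of both differences, 34.6% were higher in heterozygous heart. Of those called lower in both, 61.1% were higher. The mean raw intensity of heart arrays was 433.5 to 476.7 in heterozygotes and 368.3 to 420.6 in wild types. Genotype and brightness thus cannot be told apart in heart either, and there the heterozygotes were the brighter ones.

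Macrophage genes were often called with opposite signs. In bulk tissue, fewer cells of a type and less RNA per cell cannot be told apart. Of 19 macrophage markers tested, 10 were called higher in bone and lower in fat, none the reverse (beside 5.43% and 5.55% of all genes), with median log2 differences of 0.41 in bone and -0.47 in fat, where all genes had medians of -0.03 and 0.03. The summed log2 level of the 23 markers on the array was 15.94 to 16.01 in heterozygous bone and 15.55 to 15.96 in wild-type bone, and 14.86 to 15.24 in heterozygous fat and 15.33 to 16.01 in wild-type fat. The list's median difference between tissues was 0.94, and 0.43 with array brightness as a covariate. The number called was 8 without fat of heterozygote 2, which itself lay within the range of the other heterozygous fat arrays.

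Lyz2, the lysozyme gene of macrophages and neutrophils, was at 14.53, 14.37, 14.50 and 14.56 in heterozygous bone, against 13.96, 13.70, 14.39 and 14.19 in wild-type bone, and at 12.85, 12.62, 12.43 and 12.18 in heterozygous fat, against 14.33, 13.81, 12.94 and 13.29 in wild-type fat. The wild types spread widely in fat, yet all 4 exceeded the heterozygotes, and in bone wild type 3 lay inside the heterozygous range. C1qc, a chain of complement C1q that tissue macrophages make, was 1.43-fold higher in bone and 1.41-fold lower in fat. Mrc1, the mannose receptor, was 1.32-fold higher and 1.46-fold lower, and Vsig4, a complement receptor of resident macrophages, 1.53-fold higher and 1.28-fold lower. The marker Cx3cr1, the fractalkine receptor, instead was called lower in both tissues by the mean of both differences (-0.18 in bone and -0.86 in fat).

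Chemokine and acute-phase genes were called in the same direction. Of 15 inflammation genes tested, 6 were higher in bone and lower in fat and none the reverse, beside 5.43% and 5.55% of all genes. The list's medians were 0.22 in bone and -0.64 in fat. The chemokine gene Ccl6 was 1.72-fold higher in bone and 1.84-fold lower in fat, Ccl8 1.47-fold higher and 1.63-fold lower, and Hp, the hemoglobin-binding haptoglobin gene, 1.36-fold higher and 1.25-fold lower. The 2 other kept probes of Hp gave differences between tissues of 1.84 and 1.85, beside 0.77 for the brightest one. The count was again 6 without fat of heterozygote 2, and the list's median difference between tissues of 0.78 was 0.37 with array brightness as a covariate.

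Antigen presentation, complement and granulocyte genes had fewer calls. Of 9 genes of MHC class II presentation, H2-DMa (0.29 in bone and -0.75 in fat) and Ifi30 (0.29 and -0.52) passed, and the list's medians were 0.27 and -0.56. In bone, H2-DMa and Ifi30 had unadjusted p-values of 0.18 and 0.10 by limma. The count of 2 was 1 without fat of heterozygote 2 and 0 with arrays scaled to a common median, and the list's median difference between tissues of 0.71 was -0.003 with array brightness as a covariate. Cd74, the invariant chain, had 0.27 and -0.51 and missed the threshold (limma, adjusted p = 0.0854), as did H2-Eb1 with 0.31 and -0.37. With array brightness as a covariate, the differences between tissues of Cd74 and H2-Eb1 were -0.003 and -0.0008. Of 17 complement and clotting genes, 5 were called higher in bone and lower in fat, beside 5.43% of all genes, and none the reverse. They were C1qc and C1qb, which are also macrophage markers, F13a1, Serping1 and Cd55. In bone F13a1 had 0.02 and Serping1 0.16 (limma, unadjusted p = 0.76 and 0.13), and in fat they had -0.42 and -0.37. The list's medians were 0.02 and -0.25. The count was again 5 without fat of heterozygote 2 and 3 with arrays scaled to a common median. Of 7 eosinophil and mast cell genes, Ear10 and the mast cell carboxypeptidase gene Cpa3 passed, and without fat of heterozygote 2 it was 1 gene. Cpa3 had 0.49 in bone and -0.17 in fat (limma, unadjusted p = 0.23 in fat). Of 11 neutrophil and granulocyte genes, 1 was called higher in bone and lower in fat and none the reverse. Their medians were 0.20 in bone and 0.19 in fat, so with all arrays this list did not run in opposite directions. The summed level of its markers was 14.67 in fat of heterozygote 2, beside 12.73 to 12.99 on the other heterozygous fat arrays. The list's fat median without fat of heterozygote 2 was not computed.

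Eosinophil transcripts varied strongly among wild-type bones. Ear10 was at 9.38, 8.98, 9.21 and 8.88 in heterozygous bone, against 8.14, 6.92, 8.35 and 7.32 in wild-type bone. The eosinophil granule gene Prg2 was at 14.4, 14.3, 14.5 and 14.3 in heterozygous bone, against 13.9, 9.21, 13.9 and 11.6 in wild-type bone. Wild types 2 and 4 were thus low in both genes, and all wild types were below all heterozygotes. Leaving out bone of wild type 2 gave a difference between tissues of 2.17 for Ear10, and leaving out bone of wild type 4 gave 2.28, beside 2.42 with all arrays. What part eosinophil content had in other calls was not tested.

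Lysosome, vesicle and actin genes were also called mostly in this direction. Beside 5.43% of all genes called in this direction and 5.55% the reverse, 9 of 50 lysosome genes passed and none the reverse. Their medians were small, at 0.04 in bone and -0.10 in fat. Ctsa, the protective protein cathepsin A, was 1.72-fold higher in bone and 1.5-fold lower in fat, and Arsb, a glycosaminoglycan sulfatase, 1.29-fold higher and 1.25-fold lower. The proton pump genes Atp6v0e and Atp6ap2 changed by 1.16- to 1.19-fold in bone and 1.19- to 1.23-fold in fat, and the other 3 kept probes of Atp6ap2 gave larger differences of 1.53 to 1.67. Of 42 actin cytoskeleton genes, 7 passed and none the reverse, among them the capping protein genes Capzb and Capza1 and the profilin gene Pfn1. The count was 7 for lysosome and 5 for actin genes without fat of heterozygote 2, and 5 and 4 with arrays scaled to a common median. With array brightness as a covariate, the actin list's median difference between tissues of 0.22 was 0.04, and the lysosome list's of 0.12 was 0.08. The gelsolin gene Gsn, which severs actin filaments, was 2.23-fold higher in bone and 1.09-fold in fat and passed both tests with the same sign.

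Of 207 vesicle traffic genes, 26 were higher in bone and lower in fat and 6 the reverse, while the list's medians were 0.02 and -0.01, close to those of all genes. Vps29, a retromer subunit, had log2 differences of 0.28 and -0.20, Rab31, a small GTPase of endosomes, 0.25 and -0.41, and Sec23a, of the coat that leaves the endoplasmic reticulum, 0.56 and -0.73. The sorting nexin gene Snx30 ran the other way with -0.63 and 0.31. The count of 26 was 14 without fat of heterozygote 2. Of 181 genes of the ubiquitin system, 12 were higher in bone and lower in fat and 13 the reverse, shares near the 5.43% and 5.55% of all genes, and without fat of heterozygote 2 the counts were 7 and 8. Its members included Usp8 and the NEDD8-activating enzyme gene Uba3 on one side and Trim56 and Ube2o, a hybrid ubiquitin-conjugating enzyme and ligase, on the other.

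Genes of RNA turnover were more often called lower in bone and higher in fat than the reverse. Of all genes, 5.55% were called lower in bone and higher in fat and 5.43% the reverse. Of 48 genes of RNA decay and silencing, 10 were called in that direction, including Ddx6, Purb, Ago2, the small RNA-guided endonuclease (-0.74 in bone and 0.26 in fat), and Tnrc6b, its partner in silencing (-0.49 and 0.31). Mex3c, Caprin1 (0.34 and -0.43) and Syncrip (0.51 and -0.11) were called the reverse. The list's medians were -0.13 in bone and 0.07 in fat. Of 62 splicing genes, 11 were lower in bone and higher in fat and 4 the reverse, with medians of -0.09 and -0.01. The splicing kinase gene Clk4 had -0.39 and 0.34 and the SR protein gene Srsf4 -0.29 and 0.23, while Hnrnpk (0.57 and -0.37), Srsf10, Son and Hnrnpll ran the other way. The counts of 10 and 11 were 8 and 6 without fat of heterozygote 2. With arrays scaled to a common median they were 6 and 4, beside 2 the reverse in each list, and the fat medians were -0.04 and -0.12.

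Chromatin and zinc-finger genes were also counted against the 5.55% of all genes called lower in bone and higher in fat. Of 108 chromatin regulators, 13 were lower in bone and higher in fat, and 2, Kat2b and Dnmt3l, the reverse. The median was -0.11 in bone and 0.08 in fat. Kdm6a, an X-linked histone H3 lysine demethylase, had -0.35 and 0.46, its other kept probe giving a difference between tissues of -0.96. The histone methyltransferase genes Kmt2b and Ehmt2 had -0.53 and 0.13, and -0.32 and 0.26. Brd2, a reader of acetylated histones, had -0.31 and 0.08, and 3 regulators, Setdb1, Ep300 and Dot1l, were called lower in both tissues instead. In fat, Kmt2b and Brd2 had unadjusted p-values of 0.21 and 0.24 by limma. Of 180 zinc-finger factors, 16 were lower in bone and higher in fat and 3, Zfp985, Zfp449 and Zfp457, the reverse. Zbtb7a, a repressor of fetal globin genes in humans, had -0.48 and 0.42, and Zfp148 had -0.54 and 0.29. Both counts, 13 and 16, were 8 without fat of heterozygote 2. With arrays scaled to a common median, 4 chromatin genes were called in this direction, 1 the reverse and 6 lower in both, with a fat median of -0.02, and 5 zinc-finger genes in this direction and 4 the reverse. The zinc-finger list's median difference between tissues of -0.17 was -0.04 with array brightness as a covariate.

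Aminoacyl-tRNA synthetases charge transfer RNAs with amino acids. Of 23 genes, 6 were lower in bone and higher in fat and none the reverse, with medians of -0.07 and 0.14, and 5 were counted without fat of heterozygote 2 and 2 with arrays scaled to a common median. They included the mitochondrial synthetase genes Fars2 (-0.27 and 0.39), Wars2 (-0.64 and 0.18) and Vars2 (-0.19 and 0.42), and Gars (-0.17 and 0.15). Wars2 in fat and Vars2 in bone had unadjusted p-values of 0.20 and 0.13 by limma. Of 79 respiratory chain genes, 5 were called in this direction, a share near the 5.55% of all genes, with bone differences near 0: Ndufs6 (-0.09 and 0.32), Ndufs7 (-0.09 and 0.48), Ndufs8 (-0.05 and 0.32), Atp5g1 and Ndufa10. Atp5pb was called the reverse, and the count of 5 was 2 without fat of heterozygote 2 and 0 with arrays scaled to a common median.

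Of 12 erythroid genes tested, 3 were called lower in bone and higher in fat, beside 5.55% of all genes, and none the reverse. They were Alas2, the first enzyme of heme synthesis in red cells, the beta-globin gene Hbb-bt and the erythropoietin receptor gene Epor. The count was 2 without fat of heterozygote 2 and 1 with arrays scaled to a common median. Hbb-bt had -0.09 in bone (limma, unadjusted p = 0.58) and 0.75 in fat. Alas2 was at 13.83, 13.86, 14.00 and 13.99 in heterozygous bone, against 14.12, 14.31, 14.07 and 14.09 in wild-type bone, and at 10.78, 10.80, 10.38 and 10.29 in heterozygous fat, against 9.64, 9.83, 10.01 and 10.29 in wild-type fat. The genotypes did not overlap in bone and met in fat at animal 4. None of 12 skeletal muscle genes passed, although the list's median was 0.01 in bone and 0.94 in fat, or 0.25 in fat without fat of heterozygote 2. Its difference between tissues had a median of -0.96, and -0.24 without fat of heterozygote 2, the array on which Mb, the myoglobin gene, stood at 9.03, where the other 3 heterozygous fat arrays had 5.31 to 6.01 and the wild-type ones 4.98 to 5.61.

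**Figure D5:**
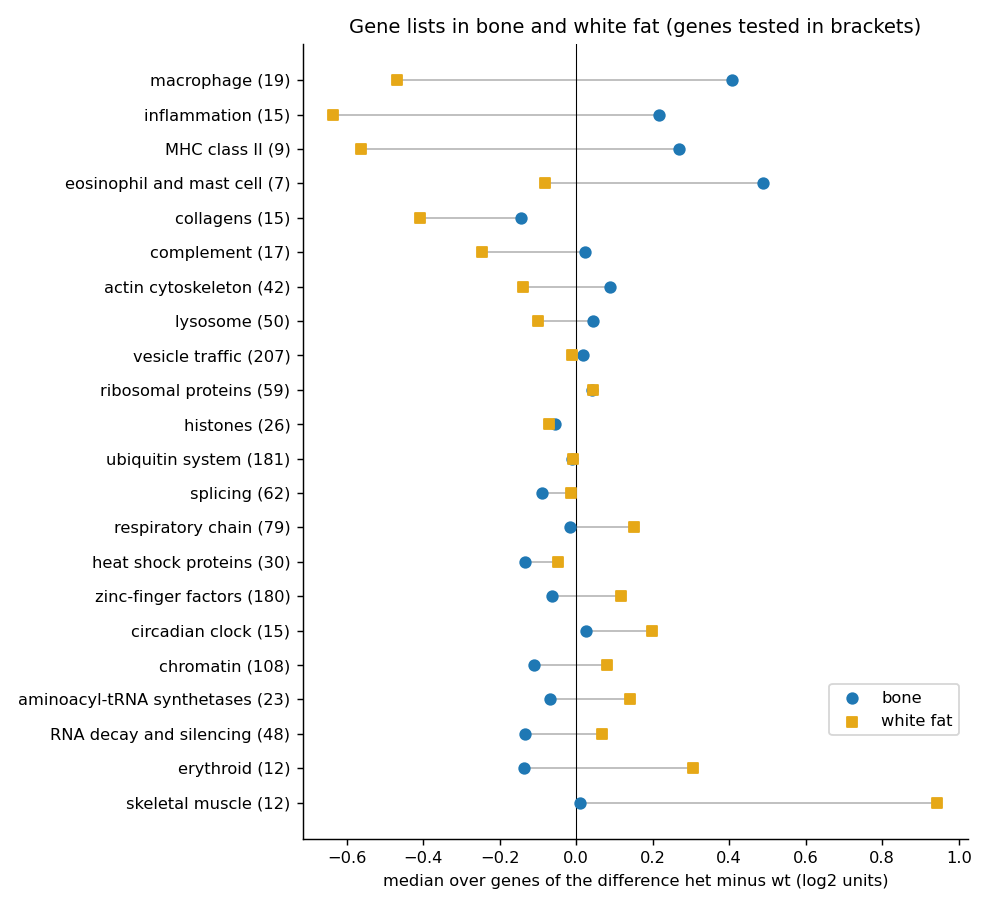
Median over the tested genes of each list of the log2 difference, heterozygous minus wild type, in bone (blue circles) and white fat (yellow squares); the number of genes tested is in brackets. Macrophage, inflammation and MHC class II genes have the widest gaps with bone above fat, and skeletal muscle genes, whose fat value was 0.25 without fat of heterozygote 2, the widest with fat above bone.

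Promoters of the genes with opposite signs were read from RefSeq (GRCm38.p6) as 250 bases before to 50 after the start, on the strand of the gene, for 371 of the 462 genes and 397 of the 472. The letters GGGCGG, a GC box, occurred on either strand in 56.3% of promoters of genes higher in bone and lower in fat and in 70.5% of those of genes lower in bone and higher in fat, beside 64.6% of 6934 promoters of all genes tested and 35.9% of all promoters in the table. AGGAAGT, the core recognised by the myeloid factor PU.1, occurred in 15.1% and 9.07%, beside 8.98% and 9.57%, and TATAAA in 6.47% and 3.53%, beside 7.61% and 14.2%. The longer ETS motif CCGGAAGT shares its last 6 letters with AGGAAGT, but no stretch matches both, and it occurred in 7.82% and 12.1%, beside 8.65% and 4%. Other motifs were also looked for, among them the C/EBP motif TTGCNNAA, which occurred in 8.89% and 6.3%, beside 8.65% and 10.8%. These shares describe the windows and were not tested. The 2 genes of smallest p that hold the letters more frequent in their direction are printed 5′ to 3′, with GGGCGG and AGGAAGT or their reverse complements in capitals.
Ccl6, minus strand, chr11:83593038-83593337: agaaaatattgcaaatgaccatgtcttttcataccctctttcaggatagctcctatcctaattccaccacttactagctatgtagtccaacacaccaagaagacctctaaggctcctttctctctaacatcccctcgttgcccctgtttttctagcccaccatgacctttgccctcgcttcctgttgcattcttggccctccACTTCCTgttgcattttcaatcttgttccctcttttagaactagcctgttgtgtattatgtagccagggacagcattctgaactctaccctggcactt
Rala, minus strand, chr13:17944168-17944467: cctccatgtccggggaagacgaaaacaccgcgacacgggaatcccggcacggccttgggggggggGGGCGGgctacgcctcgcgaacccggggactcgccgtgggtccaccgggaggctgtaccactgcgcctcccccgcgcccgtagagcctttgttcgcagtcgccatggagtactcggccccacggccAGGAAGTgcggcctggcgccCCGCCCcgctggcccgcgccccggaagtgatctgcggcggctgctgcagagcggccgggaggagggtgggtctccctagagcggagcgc
Bach1, plus strand, chr16:87698704-87699003: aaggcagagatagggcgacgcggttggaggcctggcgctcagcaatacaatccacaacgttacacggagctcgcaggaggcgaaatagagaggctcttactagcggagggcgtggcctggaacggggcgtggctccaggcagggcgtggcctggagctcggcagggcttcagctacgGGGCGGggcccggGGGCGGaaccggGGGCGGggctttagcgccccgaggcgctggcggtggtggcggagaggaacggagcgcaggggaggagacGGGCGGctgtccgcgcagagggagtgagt
Med12, plus strand, chrX:101273841-101274140: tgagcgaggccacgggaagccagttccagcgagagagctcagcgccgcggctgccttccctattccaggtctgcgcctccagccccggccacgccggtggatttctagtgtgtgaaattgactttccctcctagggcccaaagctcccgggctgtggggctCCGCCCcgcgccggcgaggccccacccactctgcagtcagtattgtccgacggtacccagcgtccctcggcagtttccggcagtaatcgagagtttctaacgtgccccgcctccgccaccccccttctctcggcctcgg
Ccl6 has 1 AGGAAGT and no GC box, with 45.3% G and C. Rala, a small GTPase of vesicle traffic, has 1 AGGAAGT and 2 GC boxes and was 1.41-fold higher in heterozygous bone and 1.29-fold lower in heterozygous fat. Bach1 has 4 GC boxes with 69.7% G and C, and Med12 has 1 with 66.3%. Neither of these holds AGGAAGT in this window.

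Fewer genes moved the same way in both tissues. The mean of the 2 genotype differences passed for 166 genes (1.95%), of which 57 (0.67%) were higher and 104 (1.22%) lower in heterozygotes in both tissues. Differences were larger in fat for 40 of the 57 and 75 of the 104, with medians of 0.24 in bone and 0.39 in fat, and -0.26 in bone and -0.42 in fat. Of the 57 and the 104, 28 and 48 had an unadjusted p under 0.05 in each tissue. Without fat of heterozygote 2 the counts were 18 and 23, and leaving out 1 array gave a total of 0 to 530. It was 0 without fat of wild type 1 or 2 or of heterozygote 3, and with no replicate block for the animal the counts were 16 and 11.

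Among genes higher in both, Cirbp encodes a cold-inducible RNA-binding protein. Its level was 7.64, 7.54, 7.79 and 7.67 in heterozygous bone, against 7.53, 7.49, 7.28 and 7.18 in wild-type bone, and 8.52, 8.50, 8.73 and 8.70 in heterozygous fat, against 7.74, 7.94, 8.22 and 7.90 in wild-type fat. The genotypes did not overlap in either tissue, though in bone the lowest heterozygote was just above the highest wild type. The mean log2 difference was 0.48 ± 0.0762 (limma, adjusted p = 0.029), from 1.22-fold in bone and 1.58-fold in fat.

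Rps25, a ribosomal protein gene, was at 12.41, 12.48, 12.39 and 12.51 in heterozygous bone, against 12.10, 12.39, 12.25 and 12.27 in wild-type bone, and at 11.97, 12.18, 12.01 and 11.90 in heterozygous fat, against 11.61, 11.45, 11.53 and 11.69 in wild-type fat. The genotypes were apart in fat and met at 12.39 in bone. Rbp7, a retinol-binding protein of adipose tissue and its vessels, was at 10.19, 9.86, 9.48 and 10.10 in heterozygous bone, against 9.34, 9.55, 9.52 and 9.67 in wild-type bone, and at 13.74, 13.63, 13.82 and 13.86 in heterozygous fat, against 12.82, 12.83, 13.42 and 13.06 in wild-type fat. Heterozygote 3 was within the wild-type range in bone. The mean difference was 0.32 ± 0.0495 for Rps25 and 0.56 ± 0.0955 for Rbp7 (limma, adjusted p = 0.029 for each).

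The further genes higher in both had varied roles. Dgat1, which catalyses the last step of triglyceride synthesis, was 1.15-fold higher in bone and 1.66-fold in fat, and Apoe, a lipoprotein component, 1.39- and 1.45-fold. Etfb, a subunit of the electron transfer flavoprotein, was 1.02- and 1.3-fold higher, and Chchd6, of the mitochondrial inner membrane organizing system, 1.22- and 1.39-fold. Depp1, a target of FOXO factors, was 1.07- and 1.91-fold higher, and Tnfrsf10b, a receptor for the ligand TRAIL, 1.55- and 1.31-fold. Dbp, a clock output transcription factor, was 1.43-fold higher in bone and 2.59-fold in fat, at 10.23, 10.54, 10.29 and 11.17 in heterozygous fat, against 8.57, 8.65, 9.96 and 9.56 in wild-type fat. It was the only 1 of 15 clock genes called by the mean of both tissues. Per1, Nr1d1 and Per3 had 0.79, 0.70 and 0.63 in fat but 0.09, 0.03 and 0.12 in bone, with limma adjusted p-values of the mean of 0.0638, 0.0699 and 0.0854.

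Of 59 ribosomal protein genes, Rps25, Rps9, Rpl7a and Rps6 were called higher in both tissues and Rps21 and Rpl29 lower in bone and higher in fat. Of all genes, 0.67% were called higher in both and 5.55% lower in bone and higher in fat. Rps9 was 1.15- and 1.18-fold higher and Rpl7a 1.22- and 1.17-fold, while Rps6 was 1.3-fold higher in bone and 1.02-fold in fat. The list's medians were 0.04 in both tissues. Without fat of heterozygote 2 the count of 4 was 1.

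Among genes lower in both, Mycbp2 encodes a large ubiquitin ligase. Its level was 8.19, 8.53, 8.58 and 8.30 in heterozygous bone, against 8.75, 8.86, 8.64 and 8.67 in wild-type bone, and 10.41, 10.33, 10.21 and 9.94 in heterozygous fat, against 11.06, 11.00, 10.97 and 10.54 in wild-type fat. The groups did not overlap in either tissue. The mean log2 difference was -0.50 ± 0.0844 (limma, adjusted p = 0.029).

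Fhl1, a LIM-domain protein of muscle, was at 13.44, 13.14, 13.11 and 13.21 in heterozygous bone, against 13.44, 13.56, 13.37 and 13.48 in wild-type bone, and at 12.82, 12.74, 12.65 and 12.61 in heterozygous fat, against 13.16, 13.11, 13.06 and 12.90 in wild-type fat. Trp53inp2, an autophagy factor, was at 10.08, 9.72, 9.72 and 9.78 in heterozygous bone, against 9.87, 9.82, 9.84 and 10.15 in wild-type bone, and at 11.05, 10.90, 10.95 and 10.63 in heterozygous fat, against 11.65, 11.64, 11.51 and 11.40 in wild-type fat. For both genes the genotypes overlapped in bone and were apart in fat. The mean difference was -0.29 ± 0.052 for Fhl1 and -0.38 ± 0.071 for Trp53inp2 (limma, adjusted p = 0.029 and 0.0309).

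The further genes lower in both fell into those led by fat and those led by bone. Epas1, the hypoxia-inducible factor HIF-2 alpha, was 1.18-fold lower in bone and 1.4-fold in fat, Asap2, an ARF GTPase-activating protein, 1.23- and 1.7-fold, and Rbm28, a nucleolar RNA-binding protein, 1.04- and 1.6-fold. Led by bone were the kinase gene Hipk2 with 1.87- and 1.07-fold, the cell cycle gene Ccnd2 with 1.6- and 1.16-fold and the B cell kinase gene Blk with 1.42- and 1.21-fold. Pcyox1l was lower by 1.37- and 1.25-fold. The second kept probe of Asap2 gave a mean difference of 0.01. Blk was detected on 2 of 4 heterozygous fat arrays.

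For 5 genes with the same sign in both tissues and the smallest p for a difference between them, 1 tissue carried nearly the whole change. Etfb, Depp1, Rbm28 and Tnfrsf21, the death receptor 6, had log2 differences of 0.03, 0.10, -0.05 and -0.04 in bone and of 0.38, 0.93, -0.67 and -0.67 in fat. Hipk2 had -0.91 in bone and -0.09 in fat. The difference between tissues had limma adjusted p-values of 0.0199 for Etfb and 0.0253 for Tnfrsf21, with the others between these.

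Histone and collagen genes were among the lists with several members called lower in both tissues, beside 1.22% of all genes. Of 133 solute carrier genes outside the Slc25 family, 4 were also called lower in both and 3 higher in both. Of 26 histone genes, 6 were called, all of the H2B family (H2bc15, H2bc9, H2bc11, H2bc14, H2bc3 and H2bc7), whose near-identical sequences the probes may not tell apart. H2bc15 was at 9.43, 9.58, 9.52 and 9.63 in heterozygous bone, against 10.53, 10.54, 9.90 and 9.56 in wild-type bone, and at 10.17, 10.07, 10.01 and 9.76 in heterozygous fat, against 10.54, 10.51, 10.28 and 10.38 in wild-type fat. In bone wild types 1 and 2 were high and wild type 4 was within the heterozygous range. The list's medians were -0.05 in bone and -0.07 in fat, and without fat of heterozygote 2 the fat median was -0.30. No histone gene was then called lower in both, 2 were called higher in bone and lower in fat and 1 the reverse, with H2bc15 at -0.52 (limma, adjusted p = 0.0504) beside -0.51 with all arrays.

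Of 15 collagen genes, Col1a1, Col5a1, Col6a2 and Col6a1 were called lower in both tissues, and Col14a1 higher in bone and lower in fat. Col1a1, which encodes the main collagen chain of bone, was at 12.78, 12.84, 13.32 and 13.05 in heterozygous bone, against 13.21, 13.61, 13.35 and 13.47 in wild-type bone, and at 11.35, 11.17, 10.86 and 10.54 in heterozygous fat, against 12.24, 12.05, 11.38 and 11.42 in wild-type fat. The groups were apart in fat, where wild types 3 and 4 lay close above the highest heterozygote, and overlapped in bone. The list's medians were -0.15 and -0.41. Without fat of heterozygote 2 the count of 4 was 1. Of 30 heat shock genes, Chordc1 (-0.45 in bone and -0.06 in fat) and Hsph1 (-0.64 and -0.14) were called lower in both and Cct3 lower in bone and higher in fat, with medians of -0.13 and -0.05, and none was counted without fat of heterozygote 2.

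Of 16 endothelin pathway genes, 11 were measured, and 3 passed a test. Of the 11, 1 was called higher in bone and lower in fat, 1 the reverse and 1 lower in both. The shares of all genes were 5.43%, 5.55% and 1.22%, so few calls separate this list from all genes. Gna13 and Gna12, the 2 alpha subunits of the G12/13 family, ran in opposite directions. Gna13 was at 9.95, 9.95, 9.90 and 10.04 in heterozygous bone, against 10.43, 10.55, 10.14 and 10.35 in wild-type bone, and at 9.70, 9.69, 9.81 and 9.90 in heterozygous fat, against 9.03, 9.30, 9.79 and 9.57 in wild-type fat. Its genotypes were apart in bone, and in fat wild type 3 reached the heterozygous range. Gna12 was at 7.22, 7.19, 7.44 and 7.71 in heterozygous bone, against 7.02, 6.52, 7.48 and 6.74 in wild-type bone, and at 8.12, 8.06, 8.02 and 7.53 in heterozygous fat, against 8.92, 8.76, 8.18 and 8.37 in wild-type fat. Its genotypes were apart in fat, and in bone wild type 3 lay among the heterozygotes. The difference between tissues was -0.76 ± 0.181 for Gna13 (limma, adjusted p = 0.0204) and 1.08 ± 0.291 for Gna12 (limma, adjusted p = 0.0315).

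Prkca, protein kinase C alpha, was called lower in both tissues. It was at 6.65, 7.03, 6.94 and 6.90 in heterozygous bone, against 7.23, 7.22, 7.04 and 7.28 in wild-type bone, and at 6.18, 6.00, 5.99 and 5.69 in heterozygous fat, against 6.46, 6.36, 6.32 and 6.35 in wild-type fat. The groups were apart in both tissues, and the mean difference was -0.36 ± 0.0789 (limma, adjusted p = 0.0393). It was not counted without fat of heterozygote 2. The ligand gene Edn1 had log2 differences of -0.23 in bone and 0.29 in fat, the converting enzyme genes Ece1 -0.63 and -0.12 and Ece2 0.16 and -0.13, and the endothelin B receptor gene Ednrb 0.31 and 0.02. None of these 4 passed either test, nor did the Gq-family genes Gnaq (-0.09 and -0.12) and Gna11 (0.05 and 0.19) or the phospholipase C genes Plcb3 (0.01 and 0.14) and Plcb4 (-0.004 and -0.03). Since the series title names velocardiofacial and DiGeorge syndrome, genes of the matching mouse region were also counted: of 23 tested, 1, the mitochondrial citrate carrier gene Slc25a1 (-0.01 in bone and 0.38 in fat), passed, and none did without fat of heterozygote 2 or with arrays scaled to a common median.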

How the data were processed

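Total RNA of bone and white adipose tissue was labelled as biotinylated cRNA and hybridised to Illumina mouse bead arrays with 25697 probes. Per the submitters' processing notes, the arrays were read with GenomeStudio 2011.1. The authors deposited raw intensities and, in a second table, background-subtracted intensities normalized within tissue with a detection p-value per probe; that table's name calls it non-normalized, and its scale was read from its values. Raw intensities with the deposited detection p-values were used here, and the second table served as an alternative. The precision is limited by 4 arrays per group.

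Computed here in R 4.3.3 with limma 3.58.1 and statmod 1.5.0: normexp background correction by the detection p-values with an offset of 16, quantile normalization over 16 arrays and log2. Probes detected (p under 0.05) on at least 4 arrays of each tissue were kept, and the probe with the highest mean stood for a gene. Names came from the platform annotation and RefSeq; of 25697 probes 23978 had 1 symbol and 1719 none. A model of 4 group means with the animal as a random block (consensus correlation -0.08) and a variance trend gave the difference between tissues, the mean of both differences and each tissue's difference, two-sided, with Benjamini-Hochberg adjustment. The procedure was tested on simulated data with 200 genes of known change. No 2 arrays were identical. P-values measure the spread between these animals.

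Same-numbered bone and fat arrays come from the same mouse by the labels. Their deviations from the group means correlated at 0.005, -0.05, 0.04 and -0.10 in heterozygotes and at -0.03, -0.07, -0.26 and 0.02 in wild types. Genes and lists were chosen with earlier results of these data known. Named are up to 12 genes per direction of opposite sign, up to 10 per direction of the same sign and 5 with a difference of the same sign, by p; up to 4 per list; all measured endothelin genes; and, after their values were seen, list members where a count was 5 or fewer, Prg2, Ago2, Tnrc6b and the genes of the array that stands apart. Alternatives for background, normalization, filter, probes, trend, weights, block, brightness, threshold and left-out arrays are in the closing section.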

Additional observations from a re-analysis of the deposited data

Results flagged for a closer look

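The difference between tissues was itself tested and passed for 29 genes named by smallest p, on the log2 scale as bone minus fat. Positive values were 0.95 for Tmem38b, 1.61 for Mex3c, 1.48 for Orm1, 0.73 for Tiam1, 0.75 for Tgfbi, 2.15 for Wfdc17, 1.03 for Upb1, 0.90 for Angptl1, 0.95 for Cd9, 1.15 for Usp8, 2.42 for Ear10, 2.40 for Sirpa, 0.62 for Rbm28 and 0.64 for Tnfrsf21. Negative values were -1.41 for Bach1, -1.22 for Ddx6, -1.06 for Med12, -1.38 for Purb, -0.99 for Sdcbp2, -0.93 for Spen, -1.20 for Trim56, -1.04 for Tnfrsf25, -1.09 for Arhgap32, -1.45 for Ccnl1, -0.99 for Srrm2, -1.25 for Rcor1, -0.35 for Etfb, -0.83 for Depp1 and -0.81 for Hipk2.

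In 28 of 532 groups of 4 arrays (5.26%), 1 array lay far from the other 3 by Dixon's ratio, and chance gives about 1 in 20. In heterozygous bone these were Wfdc17 at 7.89 (nearest other array 8.15) and Ndufs8 at 11.8 on animal 3, Plcb4 at 4.86 on animal 3, Angptl1 at 8.47 on animal 2, Zfp148 at 8.05 on animal 1, and Ccnl1 at 6.81, Clk4 at 11.2 and Gnaq at 8.96 on animal 4. In wild-type bone they were Dbp at 10.4, Ctsa at 7.79 (nearest 7.15) and Sec23a at 7.34 (nearest 6.87) on animal 3, and Trp53inp2 at 10.2 on animal 4. In heterozygous fat they were Purb at 8.35, Zbtb7a at 8.58 and Ndufs6 at 13 on animal 1, Ndufs7 at 12.3, Plcb3 at 8.66 and Plcb4 at 6.03 on animal 2, Sdcbp2 at 8.25, Cpa3 at 8.64 and Kmt2b at 8.86 on animal 3, and Atp6ap2 at 11.8, Clk4 at 11.6, Zfp395 at 8.38 (nearest 7.86) and Gna12 at 7.53 (nearest 8.02) on animal 4. In wild-type fat they were Vsig4 at 8.88 on animal 3, Ndufs8 at 10.8 on animal 1 and Ece2 at 7.14 (nearest 7.6) on animal 4.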

How the results depend on the processing

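Counts of genes with a difference between tissues (959: 462 higher in bone and lower in fat, 472 the reverse) and with a mean difference of the same sign (161: 57 higher, 104 lower) stayed within 1.5 times under an offset of 50, cyclic loess, 24 arrays normalized together, each tissue normalized alone and the authors' values. No background correction gave 87 higher in both, and detection p under 0.01 on all 16 arrays 86. Scaling to a common median gave 485 (312 and 161) and 263 (25 and 238); no detection filter, which tests 16593 genes, 484 (257 and 216) and 0; all kept probes 1512 with 833 higher in bone; no variance trend 54 of the same sign (19 and 35); array weights 2193 (898 and 1139) and 727 (302 and 425); and an adjusted p under 0.10, 1832 (792 and 955) and 504 (211 and 293).

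With no replicate block there were 27 genes of the same sign (16 and 11) and with the replicate block of the animal as a fixed effect 0 of either kind (0 in each direction; unadjusted p under 0.05 for 2412 and 1678). A replicate block by label number gave 605 (281 lower in bone) and 448 (186 and 262); same-numbered animals of the 2 genotypes correlated at -0.09 to 0.05 in bone and -0.03 to 0.37 in fat. A replicate block by mouse number, chosen after seeing the data, gave 48 (23 and 25) of the same sign. Without the 2 animals that share a number there were 1591 (696 and 840) and 22 (13 and 9), and with array brightness as a covariate 0 and 0 (unadjusted p under 0.05 for 954 and 463). The cause of these shifts was not tested.

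Leaving out 1 array or animal gave 0 to 1946 genes with a difference between tissues (0 to 819 and 0 to 1018) and 0 to 530 of the same sign (0 to 224 and 0 to 306). For single arrays the first range was 342 to 1698. It stayed within 1.5 times without bone of heterozygote 4, fat of heterozygote 1 or 2 or fat of wild type 4. In bone it was 579, 457 and 594 without heterozygotes 1, 2 and 3, and 402, 342, 1558 and 524 without wild types 1 to 4. In fat it was 530 and 405 without heterozygotes 3 and 4, and 383, 388 and 1698 without wild types 1, 2 and 3. Among animals it was 412, 147 and 192 without heterozygotes 1, 3 and 4, and 1098 without wild type 4. Among the named genes, signs turned only for differences between tissues that had not passed: with brightness as a covariate for Cd74 (-0.0028), H2-Eb1 (-0.00080), Ece2 (-0.31), Plcb3 (0.027) and Plcb4 (-0.0099), for Prkca with no background correction (-0.013) and without the 2 animals that share a number (-0.040), and on leaving out 1 array or animal for Plcb4 (-0.065 to 0.19), Gnaq (-0.093 to 0.18) and Prkca (-0.0059 to 0.24). Over all called genes, 1 of the 462 turned without wild type 1, without wild type 2, with scaling to a common median and with the authors' values, and 1 of 470 of the others without heterozygote 2 and without wild type 2. Arrays limit precision by their number, and 10 gene and group pairs among the named genes had fewer than 4 arrays detected.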
